A study of Mus musculus with 8 samples.

Results

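The genes described here are the chemokines and chemokine receptors measured in livers of MøFoxO1-KO mice and WT littermates after NASH diet feeding. They were selected by symbol in GENCODE M21, by a rule that uses no measured value, as the numbered members of the Ccl, Cxcl, Ccr and Cxcr series together with Cx3cl1, Cx3cr1, Xcl1, Xcr1 and Ackr1 to Ackr4. The rule found 63 of the 46517 genes in the table, made up of 23 CC ligands, 13 CXC ligands, 2 ligands of the C and CX3C classes, 11 CC receptors, 6 CXC receptors, 2 receptors of the C and CX3C classes, 4 atypical receptors and 2 pseudogenes of Ccl19. Of the 63 genes, 29 had enough reads to be tested, 19 more had over 3 reads in at least 1 mouse, 7 had reads but never over 3 in a mouse, and 8 had no read in any mouse.

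Whole liver RNA was sequenced from 4 MøFoxO1-KO and 4 WT male C57BL/6 mice, which had been on a NASH-inducing diet for 25 weeks from 6 weeks of age, were 31 weeks old and were fasted for 16 hours. All 8 mice carried loxP-flanked FoxO1 alleles, and the MøFoxO1-KO mice also carried Cre under the lysozyme 2 (Lyz2) promoter, which acts in monocytes, macrophages and neutrophils throughout the body and not in the liver alone. The WT littermates had no Cre, and no group was fed regular chow here, so the values compare genotypes on 1 diet. The labels name the mice by replicate, WT 22 to 25 and MøFoxO1-KO 26 to 29, and values below follow that order.

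Chemokines are small secreted or membrane-bound proteins that guide leukocytes along gradients, and the spacing of their first cysteines gives the CC, CXC, CX3C and C classes. Their receptors couple to G proteins on the arriving cells, while atypical receptors bind chemokines and remove or transport them without that signal. In fatty liver disease the axes best known for bringing cells into the liver are Ccl2 with Ccr2 for monocytes, Cxcl1 and its relatives with Cxcr2 for neutrophils, and Cxcl9, Cxcl10 and Cxcl11 with Cxcr3 for T cells.

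Each mouse had between 15253218 and 18025481 reads on genes, and the 63 chemokine and receptor genes together held 5765 to 9227 of them, or 0.0378 to 0.0536%. Of the marker lists, that of hepatocytes had by far the largest sums. Foxo1 had normalized counts of 303 to 459 in WT livers and 290 to 429 in MøFoxO1-KO livers (log2 fold change -0.17, SE 0.18, edgeR adjusted P = 0.686), and whole tissue does not separate the myeloid share of this transcript. Lyz2, the myeloid gene whose promoter drives Cre, had 378 to 1170 and 99.1 to 1022 normalized counts (log2 fold change -0.77, edgeR adjusted P = 0.586). In a principal component analysis of all tested genes, WT replicate 23 lay apart at -63.22 on the first component, with the other mice between -19.46 and 40.78. Gpnmb, a gene of lipid-associated macrophages, was the only gene of the marker lists that was called, with 44.0, 71.8, 141 and 22.9 normalized counts in WT livers and 2.88, 3.58, 7.59 and 1.12 in MøFoxO1-KO livers (log2 fold change -4.13, SE 0.67, edgeR adjusted P = 0.0382). Of the 7 genes of its list, 2 had a positive and 5 a negative estimate, with a median log2 fold change of -0.23. By edgeR, 3 were past an unadjusted P of 0.05, all lower, beside 8.06% of all tested genes on that side. In bulk tissue, fewer cells of a type and less RNA per cell cannot be told apart.

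None of the 29 tested chemokines and receptors passed the test between the genotypes. Calls required an adjusted P below 0.05 (Benjamini-Hochberg) together with a log2 fold change beyond 1.5 in either direction in edgeR's quasi-likelihood test, and 0 of 29 were called, where 0.188% of the 13278 tested genes were, 0.0527% on the higher and 0.136% on the lower side. Without the limit on the fold change the count was also 0 of 29, beside 0.294% of tested genes, 0.121% higher and 0.173% lower. At an unadjusted P under 0.05, 2 of 29 were past the threshold, Cxcl13 and Xcr1, both higher in MøFoxO1-KO livers, beside 16.7% of tested genes in either direction, 8.65% on the higher and 8.06% on the lower side. DESeq2 called 1 of 29, Cxcl13, beside 1.08% of tested genes, the unfiltered edgeR fit likewise called Cxcl13, beside 0.507% of the genes it tested, and limma-voom called 0. All 4 MøFoxO1-KO mice lay beyond all 4 WT mice for 1 of 29 genes, Xcr1, beside 9.71% of tested genes in either direction, 5.0% higher and 4.71% lower.

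The estimates lay on both sides of 0. In total 19 of 29 had a higher and 10 a lower mean in MøFoxO1-KO livers by the sign of the fold change, where 48.3% of tested genes had a positive and 51.7% a negative sign. Their median log2 fold change was 0.22, beside -0.01 for all tested genes, and the median of the 16 ligands was 0.19 and that of the 13 receptors 0.28. This median varied when single mice were left out. It was -0.05 without MøFoxO1-KO replicate 29, 0.40 without WT replicate 24 and 0.12 without WT replicate 23. The filter was rerun each time, so these medians cover 32, 30 and 32 genes and not the same 29. Each shift was smaller than the SD of the family's median between mice of a genotype, 0.416 log2 units. The 95% interval lay within 1 log2 unit of 0 for 4 of the 29 genes and within 1.5 units for 19, and it was wider than 2 units for 15, so for most of these genes a moderate difference was not detectable with 4 mice a group.

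**Figure D1:**
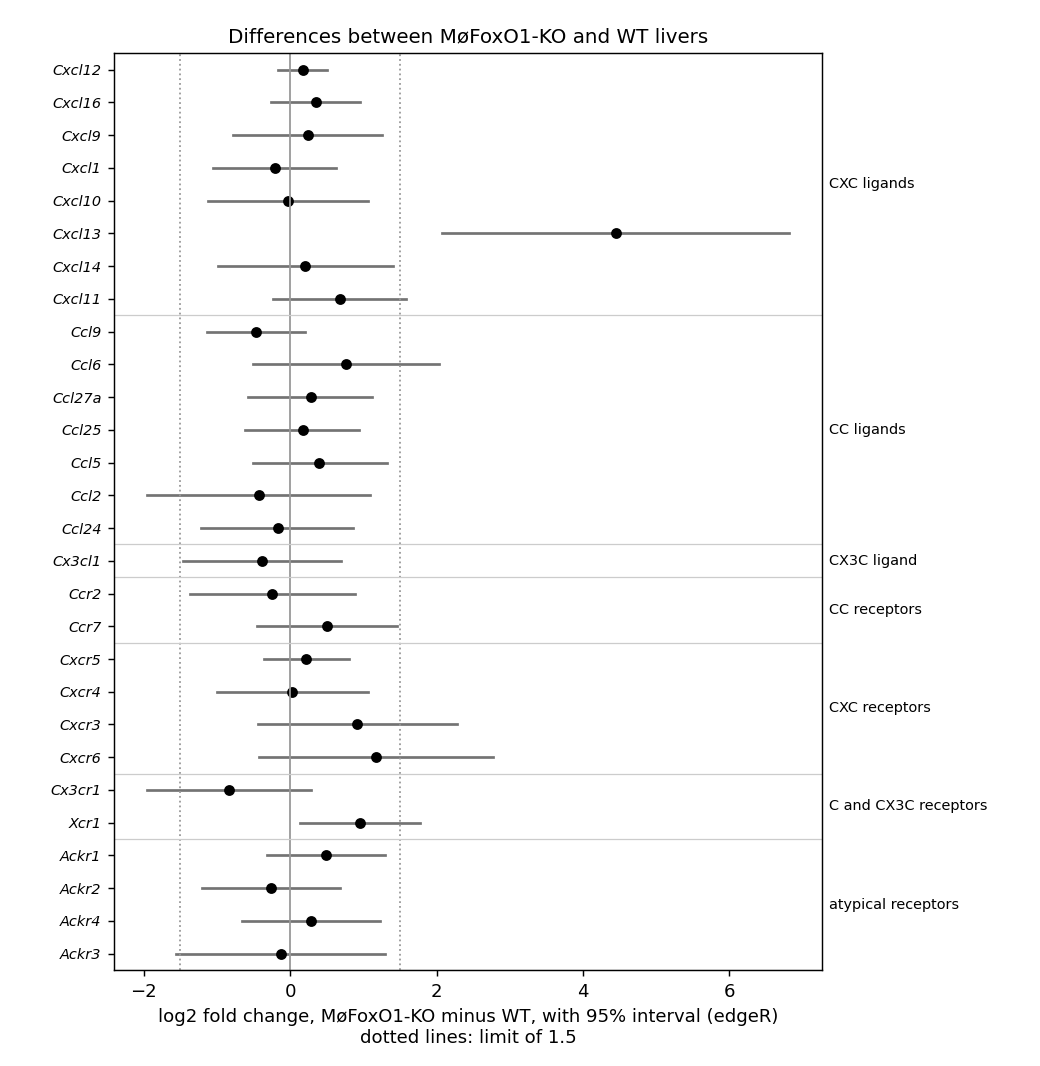
Log2 fold change of 28 of the 29 tested chemokines and receptors, MøFoxO1-KO minus WT (x axis), with its 95% interval from edgeR (horizontal bars); dotted lines mark a log2 fold change of 1.5 in either direction. Only Cxcl13 (4.45) and Xcr1 (0.95) have intervals that leave out 0, and neither passed the adjusted P.

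Cxcl13, the chemokine that draws B cells and follicular T cells to lymphoid follicles, had the largest estimate in the family. It lies on chromosome 5 of GRCm38 from 95956951 to 95961068 (ENSMUSG00000023078). The WT mice had 1, 1, 7 and 15 reads and the MøFoxO1-KO mice 83, 225, 5 and 147. In normalized counts these were 0.937, 0.983, 6.46 and 14.9 against 79.6, 269, 4.75 and 165, or 5.83 ± 6.60 in WT livers and 129 ± 114 in MøFoxO1-KO livers (SD, n = 4). Replicates 26, 27 and 29 were above every WT mouse, and replicate 28 lay between the WT mice. The log2 fold change was 4.45 with an SE of 1.07 and a 95% interval of 2.07 to 6.82, at an adjusted P = 0.119 by edgeR. DESeq2 gave 4.49 with an adjusted P = 0.0125, edgeR without a filter on low counts 4.43 with 0.0193, and edgeR without MøFoxO1-KO replicate 28 gave 4.87 with 0.0236. Over all 14 alternatives the adjusted P of Cxcl13 ranged from 0.0125 to 0.381, so its call depended on the test, the filter and that mouse.

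Cxcr5, the receptor of Cxcl13 on B cells and follicular T cells, had 50.6, 27.5, 42.5 and 35.8 normalized counts in WT livers and 54.6, 45.4, 42.7 and 39.2 in MøFoxO1-KO livers. The 2 groups overlapped, and MøFoxO1-KO replicate 28, low for Cxcl13, was in the middle of its group for the receptor. The log2 fold change of Cxcr5 was 0.22 with an SE of 0.26 and a 95% interval of -0.36 to 0.80 (edgeR adjusted P = 0.722). Of 7 B cell markers, 5 had a positive and 2 a negative estimate, none was past an unadjusted P of 0.05, and their summed normalized counts ranged from 254 to 1099 in WT livers and from 450 to 1075 in MøFoxO1-KO livers.

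Markers of Kupffer cells, the resident macrophages of the liver, and of macrophages in general were uneven between the same mice. All 11 markers of this joint list had a positive estimate, with a median log2 fold change of 1.03. By edgeR, 7 of 11 markers were past an unadjusted P of 0.05, beside 8.65% of all tested genes on the higher side, and 0 past the adjusted P. Their summed normalized counts were 6081, 3878, 6443 and 5460 in WT livers and 7120, 14335, 4959 and 21253 in MøFoxO1-KO livers, and no marker was at 0 in all mice. MøFoxO1-KO replicate 28 was again within the WT range. Replicate 26, with 79.6 normalized counts of Cxcl13, was only slightly above the highest WT mouse in this sum. It lay within the WT range for Adgre1, Clec4f, Cd5l, Csf1r, Cd68, C1qa and C1qc, and above it for Vsig4, Timd4, Marco and C1qb. Marco, a scavenger receptor of Kupffer cells, had 18.7, 4.92, 81.2 and 49.8 against 737, 2712, 66.4 and 2119 normalized counts (log2 fold change 5.18, edgeR adjusted P = 0.0870). Timd4, a receptor for dying cells on Kupffer cells of embryonic origin, had 59.0, 47.2, 50.8 and 55.8 against 157, 299, 69.3 and 377 (log2 fold change 2.08, edgeR adjusted P = 0.0968). For Timd4, replicate 28 was just above the highest WT mouse. Marco and Timd4 were singled out after their values were seen. MøFoxO1-KO replicate 29 was the highest mouse for the summed markers, while replicate 27 was the highest for Cxcl13. The part of these macrophage markers in the Cxcl13 values was not tested. In Gpnmb, by contrast, replicate 28 was below all WT mice like the other MøFoxO1-KO mice.

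**Figure D2:**
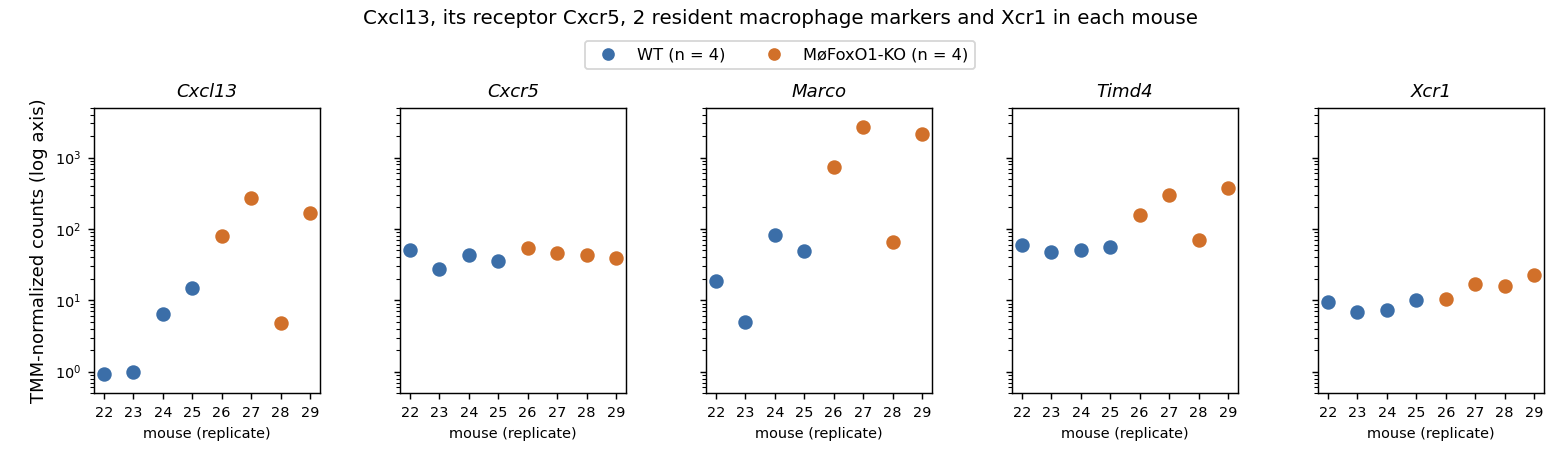
Normalized counts (y axis, log scale shared by the panels) of Cxcl13, its receptor Cxcr5, the Kupffer cell genes Marco and Timd4, and Xcr1 in each mouse (x axis, replicate number). MøFoxO1-KO replicate 28 lies with or close to the WT mice for Cxcl13 (4.75), Marco (66.4) and Timd4 (69.3), and the genotypes do not overlap for Xcr1 and Timd4.

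Xcr1, the receptor of the C class chemokine Xcl1, marks the conventional dendritic cells that present antigen to CD8+ T cells. It lies on chromosome 9 from 123852315 to 123862029 (ENSMUSG00000060509). Normalized counts were 9.37, 6.88, 7.38 and 9.96 in WT livers and 10.5, 16.7, 16.1 and 22.4 in MøFoxO1-KO livers, or 8.40 ± 1.49 and 16.4 ± 4.84 (SD, n = 4). Every MøFoxO1-KO mouse was above every WT mouse, but the lowest of them, replicate 26, exceeded the highest WT mouse by less than 1 normalized count. The log2 fold change was 0.95 with an SE of 0.37 and a 95% interval of 0.14 to 1.77 (edgeR adjusted P = 0.238), and it ranged from 0.77 to 1.12 when 1 mouse was left out. Its ligand Xcl1 was low, with 0, 1, 4 and 2 reads in WT livers and 1, 3, 4 and 3 in MøFoxO1-KO livers. Of the markers of dendritic cells, 3 of 7 were tested and all 3 had a positive estimate. Batf3, a transcription factor these cells need, had a log2 fold change of 1.25 (edgeR adjusted P = 0.213), and Clec9a, a surface receptor of the same cells, had 0.10 (edgeR adjusted P = 0.932), both named after their values were seen.

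**Figure D3:**
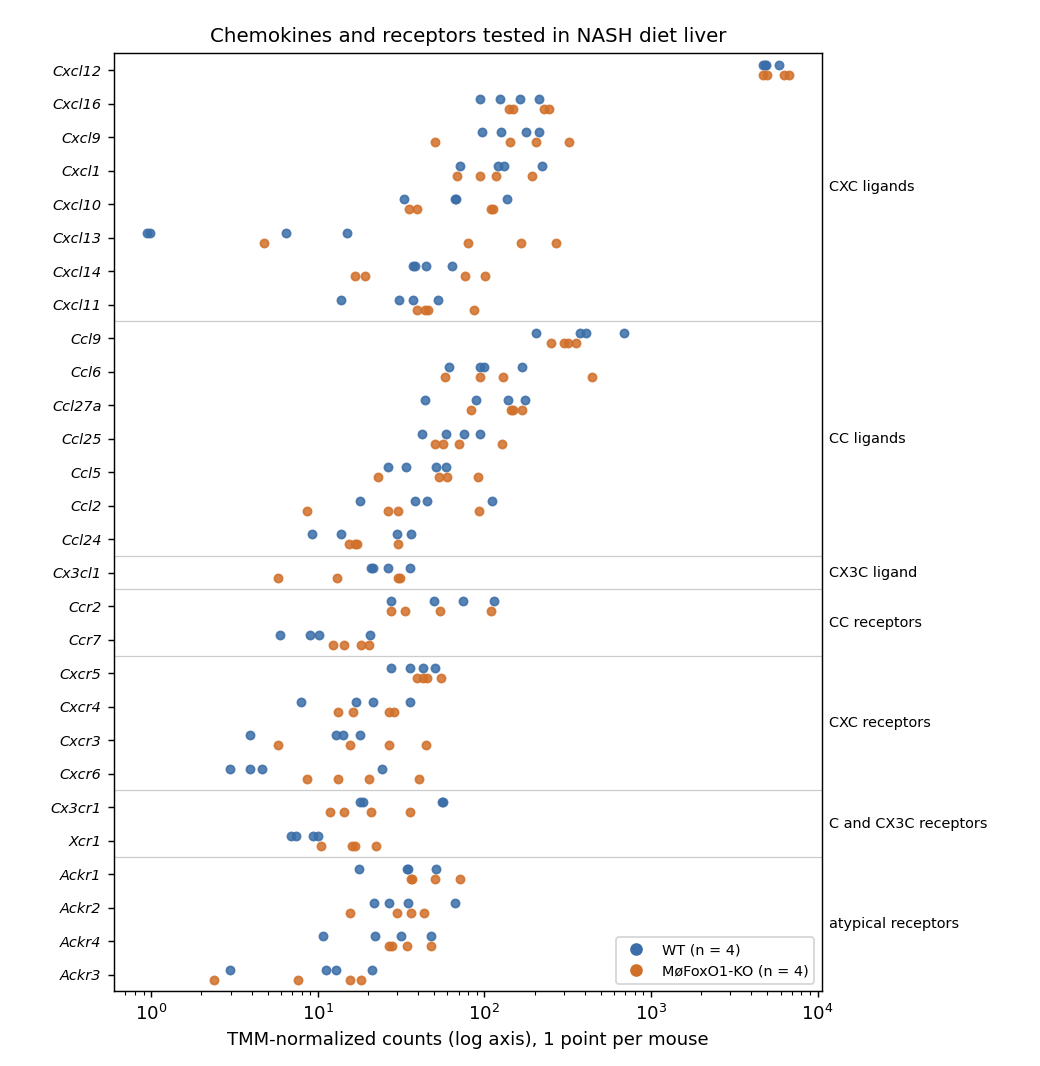
Normalized counts (x axis, log scale) of 28 of the 29 tested chemokines and receptors, with 1 point for each WT and MøFoxO1-KO mouse, grouped by class and ordered by mean. Cxcl12 stands above all other genes, and the points of the genotypes overlap for every gene but Xcr1.

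Cxcl12, which holds Cxcr4-bearing leukocytes and progenitors in tissues, was the most abundant chemokine of the liver per length. It had 37.9 ± 3.86 RPKM in WT livers and 42.5 ± 7.56 in MøFoxO1-KO livers (SD, n = 4), computed from the counts and exon lengths, and it alone gave 60.8 to 81.4% of the reads of the family in each mouse. Its normalized counts were 4885, 4710, 4847 and 5838 in WT livers and 6324, 4712, 6780 and 4965 in MøFoxO1-KO livers. Replicates 26 and 28 were the 2 highest mice and replicate 27 was level with the lowest WT mouse. The log2 fold change of Cxcl12 was 0.17 with an SE of 0.15 and a 95% interval of -0.17 to 0.50 (edgeR adjusted P = 0.620), the narrowest interval of the 29 genes. Its signaling receptor Cxcr4 had 21.5, 7.87, 36.0 and 16.9 normalized counts in WT livers and 16.3, 28.7, 13.3 and 26.9 in MøFoxO1-KO livers (log2 fold change 0.03, 95% interval -1.0 to 1.07, edgeR adjusted P = 0.980). The atypical receptor Ackr3, which removes Cxcl12, had 11.2, 2.95, 21.2 and 12.9 against 18.2, 2.39, 7.59 and 15.7 (log2 fold change -0.13, edgeR adjusted P = 0.940). Both receptors had a mouse of each genotype near the bottom and near the top of the range.

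Per length, Cxcl12 was followed among ligands by Ccl9 at 7.28 RPKM over all 8 mice, Ccl6 at 4.88, Cxcl1 at 4.15, Cxcl13 at 3.59 and Cxcl16 at 3.42. Ccl9 and the next ligands lay within their spread, since Ccl9 had an SD of 4.05 RPKM in WT livers and Ccl6 of 6.01 RPKM in MøFoxO1-KO livers. Cxcl13 owed its place to 3 mice. It had 0.310 ± 0.351 RPKM in WT livers, the lowest level of the 16 tested ligands, and 6.87 ± 6.03 RPKM in MøFoxO1-KO livers.

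Ccl9 and Ccl6 are mouse chemokines that act on Ccr1 of monocytes and neutrophils. Normalized Ccl9 counts were 407, 691, 377 and 203 in WT livers and 251, 318, 355 and 299 in MøFoxO1-KO livers. The MøFoxO1-KO values lay inside the WT range (log2 fold change -0.46, SE 0.30, 95% interval -1.13 to 0.21, edgeR adjusted P = 0.482). Ccl9 was also the 1 tested gene of the family with its highest value in WT replicate 23. Ccl6 had 100, 61.0, 169 and 93.6 against 93.9, 130, 57.9 and 442 (log2 fold change 0.77, SE 0.57, edgeR adjusted P = 0.545). Its higher mean came from replicate 29, without which the log2 fold change was -0.18. Ccr1 itself had 16, 6, 14 and 4 reads in WT livers and 0, 6, 9 and 8 in MøFoxO1-KO livers, too few for the filter (edgeR without a filter, log2 fold change -0.64, adjusted P = 0.706).

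Ccl2 and its receptor Ccr2, which bring monocytes from the blood, differed by less than their spread. Ccl2 had 38.4, 45.2, 111 and 17.9 normalized counts in WT livers and 8.63, 26.3, 30.4 and 92.9 in MøFoxO1-KO livers, or 53.1 ± 40.2 and 39.5 ± 36.8 (SD, n = 4). WT replicate 24 and MøFoxO1-KO replicate 29 stood above the rest of their groups. The log2 fold change of Ccl2 was -0.43 with an SE of 0.68 and a 95% interval of -1.96 to 1.09 (edgeR adjusted P = 0.791), and it was 0.21 without WT replicate 24 and -1.29 at the other end of the range with 1 mouse left out. Ccr2 had 74.0, 27.5, 114 and 49.8 against 33.5, 27.5, 54.1 and 109 normalized counts. The same pair of mice was highest, and the lowest mouse of each genotype had the same value. The log2 fold change of Ccr2 was -0.25 with an SE of 0.50 and a 95% interval of -1.37 to 0.88 (edgeR adjusted P = 0.844), and 0.14 without WT replicate 24. These intervals hold both a fall and a rise of 1 log2 unit for Ccl2, and a fall of that size for Ccr2. The other Ccr2 ligands were scarce, with 1, 10, 10 and 1 against 6, 1, 4 and 13 reads for Ccl7 and at most 2 reads a mouse for Ccl12. Of 5 tested monocyte markers, 5 had a positive estimate and 0 were past an unadjusted P of 0.05.

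Of the inflammatory CC ligands of macrophages and effector T cells, Ccl3 and Ccl4 were highest in single mice, while Ccl5 was spread over several mice. Ccl5 had 51.5, 26.5, 59.1 and 33.8 normalized counts in WT livers and 23, 59.7, 53.1 and 91.8 in MøFoxO1-KO livers (log2 fold change 0.40, SE 0.41, edgeR adjusted P = 0.666). Ccl3 and Ccl4, made by activated macrophages, failed the filter on low counts. Ccl3 had 5, 2, 21 and 1 reads against 3, 1, 0 and 21, and Ccl4 had 5, 7, 19 and 2 against 1, 7, 3 and 35. For Ccl3 and Ccl4, WT replicate 24 and MøFoxO1-KO replicate 29 held most reads of their group, and the log2 fold changes without a filter were -0.01 and 0.68 (edgeR adjusted P = 0.996 and 0.734).

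The interferon-induced ligands of Cxcr3 sit next to each other on chromosome 5, Cxcl9 from 92321347 to 92328079, Cxcl10 from 92346638 to 92348889 and Cxcl11 from 92359544 to 92365485. Cxcl9 had 177, 125, 212 and 96.6 normalized counts in WT livers and 50.8, 143, 204 and 324 in MøFoxO1-KO livers (log2 fold change 0.24, SE 0.46, edgeR adjusted P = 0.834). Cxcl10 had 66.5, 67.8, 136 and 32.9 against 35.5, 39.4, 112 and 110 (log2 fold change -0.03, SE 0.49, edgeR adjusted P = 0.982). Cxcl11, which the annotation lists as a polymorphic pseudogene in the reference genome, had 37.5, 13.8, 52.6 and 30.9 against 46.0, 44.2, 86.4 and 39.2 (log2 fold change 0.68, SE 0.41, edgeR adjusted P = 0.438). The genotypes overlapped for all 3, and the 3 neighbours did not share a rank order of mice, since replicate 26 was lowest for Cxcl9 and second of its group for Cxcl11. Their receptor Cxcr3, on T cells and NK cells, had 14.1, 3.93, 12.9 and 17.9 against 5.75, 15.5, 44.6 and 26.9 (log2 fold change 0.92, SE 0.61, edgeR adjusted P = 0.485). WT replicate 23 was the lowest mouse for Cxcl11 and Cxcr3.

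Cxcl1 is the neutrophil chemokine that the mouse liver makes most of among the Cxcr2 ligands. It had 223, 132, 120 and 71.7 normalized counts in WT livers and 68.1, 94.4, 118 and 194 in MøFoxO1-KO livers (log2 fold change -0.21, SE 0.38, 95% interval -1.05 to 0.63, edgeR adjusted P = 0.825), and 0.13 without WT replicate 22, its highest mouse. The related Cxcl2 had 1, 3, 11 and 5 reads against 1, 7, 3 and 3, Cxcl5 had 5, 1, 3 and 1 against 0, 0, 0 and 7, and Cxcl3 had 3 reads in 1 WT mouse and none elsewhere. Cxcr2 itself had at most 3 reads in any mouse, and Cxcr1 at most 4. With so few reads no difference in these genes was detectable at this depth.

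To show what lies before the start of these genes, the 250 bases upstream of 3 of them are given from RefSeq (GRCm38.p6), 5′ to 3′ on the strand of the gene. Cxcl13 (chr5:95956689-95956938, plus strand) is shown for its estimate, and Cxcl1 (chr5:90890995-90891244, plus strand) and Cxcl10 (chr5:92348890-92349139, minus strand) as examples that hold a searched motif. Capitals mark matches on either strand to the NF-kB-like motif (GGG, any 3 bases, then TTCC) or, in Cxcl10, also to the interferon response motif (TTTC, any 2 bases, then TTTC), and the Cxcl1 match nearest to its start is a pair of overlapping matches on opposite strands.
Cxcl13: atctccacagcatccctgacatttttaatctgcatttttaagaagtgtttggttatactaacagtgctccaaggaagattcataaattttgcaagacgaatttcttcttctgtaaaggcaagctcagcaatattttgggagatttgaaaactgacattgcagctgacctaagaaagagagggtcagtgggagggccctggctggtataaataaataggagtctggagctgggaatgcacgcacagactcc
Cxcl1: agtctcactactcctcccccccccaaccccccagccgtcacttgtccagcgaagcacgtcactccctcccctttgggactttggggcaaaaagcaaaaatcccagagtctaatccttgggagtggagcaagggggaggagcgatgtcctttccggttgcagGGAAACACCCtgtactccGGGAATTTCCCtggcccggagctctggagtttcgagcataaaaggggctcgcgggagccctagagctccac
Cxcl10: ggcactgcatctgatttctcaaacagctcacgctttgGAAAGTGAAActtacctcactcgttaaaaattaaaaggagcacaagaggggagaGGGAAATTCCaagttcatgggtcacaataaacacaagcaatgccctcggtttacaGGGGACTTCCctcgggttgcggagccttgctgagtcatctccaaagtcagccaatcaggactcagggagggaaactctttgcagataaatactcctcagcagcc
Cxcl13 had no match to any of the 4 motifs searched, which says only that these letters are not in this window.

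Of the 63 genes, 46 had an upstream sequence in the RefSeq table, and the same windows of 27025 genes served for comparison. The NF-kB-like motif was in 9 of 46, or 19.6%, beside 5.31% of all genes, and it was found in Ccl1, Ccl9, Ccl20, Ccr3, Ccr6, Cxcl1, Cxcl2, Cxcl3 and Cxcl10. The interferon response motif was in 3 of 46, Ccl19, Cxcl10 and Cxcl14, beside 3.46% of all genes. The forkhead core GTAAACA was in 0 of 46, beside 3.54%, and the STAT6 motif (TTC, any 4 bases, then GAA) in 1, Ccl17, beside 6.76%. Some of these genes are neighbours that arose by duplication, so their windows are not independent, and a match is no evidence of binding. Of the tested genes that hold the NF-kB-like motif, Ccl9, Cxcl1 and Cxcl10 had log2 fold changes of -0.46, -0.21 and -0.03.

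The remaining ligands gave small estimates. Cxcl16, a membrane-bound chemokine of macrophages and endothelium, had 163, 94.4, 212 and 124 normalized counts in WT livers and 140, 227, 148 and 245 in MøFoxO1-KO livers (log2 fold change 0.35, SE 0.28, edgeR adjusted P = 0.565). Its receptor Cxcr6, on T cells and NK T cells of the liver sinusoids, had 24.4, 3.93, 4.61 and 2.99 against 8.63, 20.3, 13.3 and 40.3 (log2 fold change 1.17, SE 0.72, 95% interval -0.43 to 2.77, edgeR adjusted P = 0.447). WT replicate 22 alone overlapped with the MøFoxO1-KO mice, and its removal moved the log2 fold change to 2.37. All 7 tested T cell markers had a positive estimate, with a median of 0.63. Of them, 2 were past an unadjusted P of 0.05 by edgeR, beside 8.65% of all tested genes on the higher side. The summed counts of the T cell markers were 163, 62.9, 132 and 79.6 in WT livers and 125, 185, 155 and 251 in MøFoxO1-KO livers, so WT replicate 22 was the highest WT mouse in these as well. Their part in the Cxcr3 and Cxcr6 values was not tested.

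Ccl25, Ccl27a, Ccl24 and Cxcl14 had log2 fold changes between -0.17 and 0.28 and edgeR adjusted P values between 0.757 and 0.885. Ccl25, which directs gut-homing lymphocytes through Ccr9, had 42.2, 59.0, 94.1 and 75.7 against 56.6, 128, 70.2 and 50.4 normalized counts. Ccl27a, a ligand of Ccr10, had 44.0 to 176 in WT livers and 82.6 to 168 in MøFoxO1-KO livers, and its reads could be shared with the near-identical Ccl27b, which had none. Ccl24, an eosinophil chemokine acting on Ccr3, had 9.23 to 36.5 and 15.3 to 30.2, while Cxcl14 had 37.5 to 63.7 and 16.7 to 101.

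Cx3cl1, a membrane-bound ligand of endothelial and epithelial cells, had 21.5, 26.5, 36.0 and 20.9 normalized counts in WT livers and 5.75, 13.1, 31.3 and 30.2 in MøFoxO1-KO livers (log2 fold change -0.38, SE 0.48, edgeR adjusted P = 0.735). Cx3cr1, its receptor on monocyte-derived macrophages, had 55.3, 18.7, 56.3 and 17.9 against 14.4, 11.9, 20.9 and 35.8 (log2 fold change -0.84, SE 0.50, 95% interval -1.95 to 0.28, edgeR adjusted P = 0.435). Cx3cr1 had the most negative estimate among the tested genes, and its sign was the same with any 1 mouse left out (-1.22 to -0.56). MøFoxO1-KO replicates 26 and 27 lay below all WT mice, and replicates 28 and 29 lay between the lower and the upper pair of them.

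Ccr7, which takes dendritic cells and T cells toward lymph nodes, had 20.6, 5.90, 10.2 and 8.96 normalized counts in WT livers and 18.2, 14.3, 12.3 and 20.2 in MøFoxO1-KO livers (log2 fold change 0.50, SE 0.43, edgeR adjusted P = 0.599). Its ligand Ccl19 had 7, 0, 11 and 4 reads against 6, 8, 14 and 11, and Ccl21a had 24, 3, 3 and 2 against 14, 11, 4 and 1. Ccl19 has near-identical pseudogenes, of which Ccl19-ps1 had 0 to 17 reads a mouse, and Ccl21a has a near-identical copy in Ccl21b, which had none, so the division of reads among these copies is uncertain.

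The 4 atypical receptors were all tested. Ackr1, which binds many CC and CXC chemokines on red cells and venules, had the highest level per length of all receptors at 1.81 RPKM over the 8 mice. Cxcr5 had 0.915 RPKM, Ackr2 0.752 and Cxcr4 0.707, and these 3 lay within their spread, with Ackr2 at 0.821 ± 0.441 and Cxcr4 at 0.695 ± 0.397 RPKM in WT livers (SD, n = 4). Normalized Ackr1 counts were 51.5, 17.7, 34.1 and 34.8 in WT livers and 36.4, 50.2, 71.2 and 36.9 in MøFoxO1-KO livers (log2 fold change 0.49, SE 0.36, edgeR adjusted P = 0.531). All MøFoxO1-KO mice were above 3 of the 4 WT mice. Ackr1 shares 361 of its 1405 exonic bases with Cadm3 on the same strand, so part of its reads could be assigned to neither or either gene. Ackr2, which takes up inflammatory CC chemokines, had 34.7, 21.6, 66.5 and 26.9 against 43.1, 29.9, 36.1 and 15.7 (log2 fold change -0.26, SE 0.42, edgeR adjusted P = 0.799). Ackr4, which takes up Ccl19, Ccl21 and Ccl25, had 47.8, 10.8, 31.4 and 21.9 against 26.8, 47.8, 34.2 and 28 (log2 fold change 0.28, SE 0.42, edgeR adjusted P = 0.780), and 479 of its bases lie opposite exons of the abundant Acad11. The strand setting of the counting is not given in the sources used here. The same limit holds for Cxcl16, with 552 of its 3021 exonic bases opposite exons of Zmynd15.

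Of the genes below the filter, several had their reads in 1 or 2 mice. Ccr3, the eosinophil receptor, had 12 of its 13 reads in MøFoxO1-KO replicate 29 and the other in WT replicate 24. Ccl8 had 1, 0, 0 and 0 reads against 3, 0, 0 and 7, and Ccl11 had 1, 0, 1 and 0 against 4, 0, 1 and 7. Ccl22, which attracts regulatory T cells through Ccr4, had 15, 4, 24 and 0 against 1, 0, 14 and 7. Ccr6, found on B cells and on T cells that make IL-17, had 6, 2, 1 and 4 reads against 0, 1, 0 and 0. In edgeR without a filter, Ccr6 had a log2 fold change of -3.06, with an unadjusted P = 0.0255 and an adjusted P = 0.331. Its groups met at 1 read, held by WT replicate 24 and MøFoxO1-KO replicate 27. No read was counted in any mouse for Ccl1, Ccl20, Ccl21b, Ccl26, Ccl27b, Ccr8, Cxcl15 and Ccl19-ps3, where a floor of 3 reads allows up to 0.169 to 0.219 CPM depending on the mouse.

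The spread among the tested genes followed a few mice. WT replicate 24 and MøFoxO1-KO replicate 29 were each the highest mouse for 8 of 29 genes, or 27.6%, where they were highest for 11.5 and 15.6% of all tested genes. For WT replicate 24 these included Ccl2, Ccr2, Cxcl10, Cx3cl1, Cx3cr1 and Cxcr4, and for MøFoxO1-KO replicate 29 Ccl5, Ccl6, Cxcl9, Cxcl16 and Cxcr6. WT replicate 23 was the lowest mouse for 11 of 29, or 37.9%, beside 25.5% of all tested genes, and was highest for 1 of 29, beside 27.2%. With the size factors of DESeq2 the counts were 8, 8 and 12. WT replicate 24 and MøFoxO1-KO replicate 29 were also the highest mouse of their group in the summed markers of several lists. These were the joint list of Kupffer cells and macrophages, and those of monocytes, neutrophils, B cells, NK cells and lipid-associated macrophages. WT replicate 23 was the lowest of all mice in the summed markers of the joint list of Kupffer cells and macrophages. It was also the lowest in those of T cells, B cells, NK cells, dendritic cells and endothelium. The part of cell composition in the chemokine values was not tested.

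**Figure D4:**
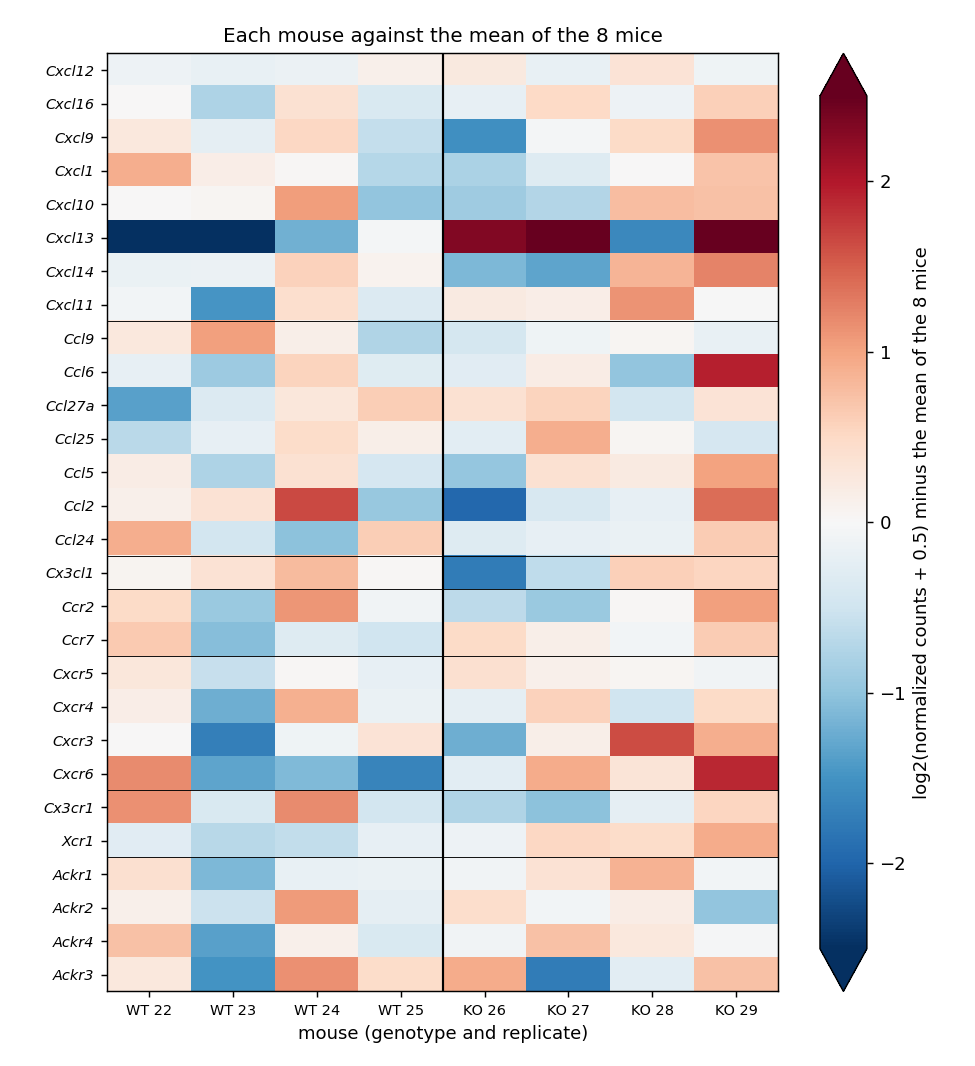
Log2 of normalized counts plus 0.5 in each mouse (columns) minus the mean of the 8 mice, for 28 of the 29 tested chemokines and receptors (rows); red is above and blue below the mean, the scale ends at 2.5 in either direction, and the vertical line parts WT from MøFoxO1-KO mice. WT replicate 24 and MøFoxO1-KO replicate 29 have many of the red cells, WT replicate 23 many of the blue ones, and Cxcl13 is the row with the deepest colors.

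Genes that relay or induce the chemokine signal were examined with fixed lists. Of 38 tested genes of signal transduction, such as G protein subunits, arrestins, kinases and Rac activators, 22 had a positive and 16 a negative estimate with a median log2 fold change of 0.13. By edgeR, 0 passed the adjusted P and 4 were past an unadjusted P of 0.05, all higher, beside 8.65% of all tested genes on that side. Prex1, an activator of Rac downstream of G protein subunits, had a log2 fold change of 0.62 (edgeR adjusted P = 0.125), Rac2, the Rac of blood cells, had 0.81 (edgeR adjusted P = 0.259), and Fpr1, a formyl peptide receptor, had 1.38 (edgeR adjusted P = 0.212). Rac2 and Fpr1 are expressed chiefly in leukocytes, and the part of cell composition in their values was not tested.

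Of 21 tested regulators and cytokines that induce chemokines, 10 had a positive and 11 a negative estimate with a median log2 fold change of -0.01. By edgeR, 0 passed the adjusted P and 6 were past an unadjusted P of 0.05, 4 higher and 2 lower. Of all tested genes, 16.7% were past that threshold in either direction. Il1b, the inflammasome cytokine, had 14.1, 14.7, 48.0 and 40.8 normalized counts in WT livers and 45.1, 159, 28.5 and 235 in MøFoxO1-KO livers (log2 fold change 1.98, edgeR adjusted P = 0.204). MøFoxO1-KO replicates 26 and 28 were within the WT range and replicates 27 and 29 above it. Il1a and Irf7 had log2 fold changes of 0.84 and 0.69 (edgeR adjusted P = 0.225 and 0.264). Jun, a subunit of the AP-1 factor, had 514, 753, 480 and 412 against 173, 281, 321 and 231 (log2 fold change -1.10, edgeR adjusted P = 0.0953), with all MøFoxO1-KO mice below all WT mice. Nfkb2, a subunit of NF-kB, had -0.46 (edgeR adjusted P = 0.219). Among 15 tested genes that cleave, shed or bind chemokines, 4 had a positive and 11 a negative estimate, and only the carboxypeptidase Cpb2 (log2 fold change 0.59) and the convertase Furin (-0.42) were past an unadjusted P of 0.05, with adjusted P of 0.253 and 0.273 by edgeR. These 2 of 15 stand beside the same 16.7% of all tested genes.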

How the data were processed

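Libraries of polyadenylated RNA were made from 10 mg of liver of each mouse. A table of raw read counts for Ensembl genes was deposited by the authors, with exon coordinates and lengths on GRCm38. The submitters' processing notes name STAR, featureCounts and mm10, and strand and multi-mapping settings are not given in the sources used here. The 512 genes without a symbol in GENCODE M21 hold 0.0399% of the counts.

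The quasi-likelihood F test was run in edgeR 4.0.16 (R 4.3.3) with TMM scaling and genotype as the sole term, on the 13278 genes kept by filterByExpr (minimum count 10, minimum total 15). The Benjamini-Hochberg adjustment covered all of them. Normalized counts are counts divided by the TMM library size, relative to its mean over the 8 mice, and RPKM values were computed from them and the exon length. P values measure the spread between mice. The family was selected by symbol alone, but it and the gene lists were chosen for study with earlier results of these data known. Full values were given for genes past a threshold, the 5 ligands and 5 receptors highest in RPKM, members named in the paper, and their partners. Alternatives were DESeq2 1.42.0, its size factors, upper-quartile scaling, no filter, a minimum of 10 counts in each mouse, limma-voom (limma 3.58.1), the robust fit, other thresholds and leaving out each mouse. Intervals cover 95%. On simulated data, edgeR recovered 93 of 100 genes changed 4-fold and 98 of 100 changed 8-fold, with 0 false calls among 12895. The self-test drew each gene independently, unlike a liver, and gave all genes the same coefficient of variation between mice, 0.256. Genes of this family such as Cxcl13 and Ccl2 varied more between mice, so these recovery rates do not hold for them. Figures were drawn with matplotlib 3.10.9. Ccl21c was looked for and is not used here, protein sequences were not analysed here, and a few genes are not reported here.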

Additional observations from a re-analysis of the deposited data

Results flagged for a closer look

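Values far from the others of their group were sought by Dixon's criterion in 88 groups of 4 mice, and 5 were found, where chance flags about 1 in 20. In MøFoxO1-KO livers, Ccl24 was 30.2 normalized counts in replicate 29, with the others at 15.3 to 17.1, and the summed NK cell markers were 180 in it, with the others at 58.5 to 76.9. Cxcl11 was 86.4 in MøFoxO1-KO replicate 28, with the others at 39.2 to 46.0. In WT livers, Cxcr6 was 24.4 in replicate 22, with the others at 2.99 to 4.61, and Cxcl12 was 5838 in replicate 25, with the others at 4710 to 4885.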

How the results depend on the processing

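Of 411 alternative estimates for 28 tested genes, 385 kept their direction and their side of the threshold, 23 changed sign and 3 passed the threshold, all of Cxcl13. In all, 16 genes did not change sign under any alternative and 12 did. The count of genes called, and of those past the adjusted P alone, was 1 with DESeq2 and 1 without a filter on low counts, and 0 to 1 when 1 mouse was left out (1 without MøFoxO1-KO replicate 28), and the gene was Cxcl13 each time. The count past an unadjusted P was 0 with at least 10 counts in every mouse, a filter that removes Cxcl13 and Xcr1 from the test. It was 1 with limma-voom and 1 to 3 with 1 mouse left out. Without a filter on low counts it stayed at 2, but the genes were Cxcl13 and Ccr6, which was lower in MøFoxO1-KO livers, and no longer Xcr1. The count of genes whose groups do not overlap was 0 with at least 10 counts in every mouse and 1 to 4 with 1 mouse left out, the 4 being Ackr1, Ccr7, Cxcr6 and Xcr1 without WT replicate 22. Groups separate more easily by chance when 1 mouse is left out. For this count and that past an unadjusted P, shares of all tested genes were not computed under the alternatives. They are therefore not read as results about the family. With limma-voom, the log2 fold changes of Cxcl9 and Cxcl14 were -0.02 and -0.16, and the cause was not tested. Signs that turned when 1 mouse was left out belonged to Ackr2 (-0.46 to 0.17), Ackr3 (-0.49 to 0.29), Ccl2 (-1.29 to 0.21), Ccl24 (-0.45 to 0.17), Ccl25 (-0.19 to 0.37), Ccl6 (-0.18 to 1.08), Ccr2 (-0.78 to 0.14), Cxcl1 (-0.55 to 0.13), Cxcl10 (-0.29 to 0.41), Cxcl14 (-0.28 to 0.51), Cxcl9 (-0.20 to 0.55) and Cxcr4 (-0.24 to 0.45). The median over the tested genes ranged from -0.05 to 0.40 with 1 mouse left out and from 0.15 to 0.24 under the other alternatives. Each median covers the genes its own setting kept, so the set of genes differs between some settings. No paired analysis was possible because the groups share no replicate number. Of the 63 genes, 19 had too few reads for the filter, 7 had at most 3 reads in any mouse and 8 had none, so differences in them were not detectable at this depth.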

Other observations

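Chemoattractant receptors and chemokine-like genes outside the naming rule had 12 positive and 3 negative estimates among 15 tested genes, with a median log2 fold change of 0.32. By edgeR, 0 passed the adjusted P and 2 were past an unadjusted P of 0.05, beside 16.7% of all tested genes in either direction. Fpr2, a formyl peptide receptor of neutrophils and macrophages, had 13.1, 14.7, 26.8 and 15.9 normalized counts in WT livers and 26.8, 94.4, 39.9 and 132 in MøFoxO1-KO livers (log2 fold change 2.04, SE 0.51, edgeR adjusted P = 0.123). Its lowest MøFoxO1-KO mouse, replicate 26, was level with its highest WT mouse, replicate 24. Fpr1 had 16.9, 13.8, 44.3 and 30.9 against 49.8, 123, 31.3 and 73.9, so its groups overlapped at replicate 28. The platelet chemokines Pf4 and Ppbp had log2 fold changes of -0.10 and 0.53 (edgeR adjusted P = 0.940 and 0.690). Rarres2, the precursor of the liver chemoattractant chemerin, had 3596 to 6128 normalized counts in WT livers and 5466 to 6782 in MøFoxO1-KO livers (log2 fold change 0.34, edgeR adjusted P = 0.362). Pf4, Ppbp and Rarres2 were chosen after their values were seen.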
